A study of Mus musculus with 7 samples.

Results

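The mitochondrial respiratory chain subunits were followed across 7 one-colour CodeLink arrays of mouse mammary glands kept in organ culture (MMOC). A gene was a member if its probe carried a RefSeq accession of a gene whose symbol begins with Nduf, Sdh, Uqcr, Atp5 or Cox4 to Cox8. This gave 85 probes for 81 genes, out of 14763 named probes for 13971 genes and 34967 gene probes in all. Of the 81 genes, 68 encode subunits that most tissues express, 5 encode tissue-restricted isoforms of cytochrome c oxidase (Cox4i2, Cox6a2, Cox7a1, Cox7b2 and Cox8b), and 8 encode assembly factors or related proteins that share the prefixes. Members were chosen by symbol and sorted by a list of known subunits of complexes I to V. The label follows from that choice, and no array value checks it.

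The respiratory chain sits in the inner mitochondrial membrane and is built from nuclear and mitochondrial gene products. Complex I (Nduf) and complex II (Sdh) pass electrons from NADH and succinate to ubiquinone, complex III (Uqcr) passes them to cytochrome c, complex IV (Cox) passes them to oxygen, and complex V (Atp5) uses the proton gradient to make ATP. Complex II is also an enzyme of the citric acid cycle. Several nuclear subunits of complex IV exist as a common form and a form used in muscle, heart, brown fat, lung or testis, so their transcripts report on which cells a tissue piece contains. The mammary gland is a fat pad with an epithelial tree, and it borders on skeletal muscle.

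The series examined how the estrogen receptors bear on lesions that the carcinogen DMBA induces in cultured glands. All glands came from mice 4 weeks of age. Per the labels' protocols, WT mice need priming with estrogen (1 µg) and progesterone (1 mg), and WT and knockout mice were primed over 5 days with EGF (25 ng) and progesterone. EGF and progesterone are also what the study names for the pooled WT, αERKO and βERKO RNA. Its culture methods instead give estrogen and progesterone for 9 days to C57, αERKO and βERKO mice. Which priming was used for the WT arrays without DMBA and for the Balb/c arrays is not stated, so contrasts with these arrays may also differ in priming. The glands then grew for 10 days in insulin and prolactin at 5 µg/ml with aldosterone and hydrocortisone at 1 µg/ml, DMBA was given at 2 µg/ml on day 3 for 24 h, and a regression phase of 14 days in insulin alone followed. One array came from αERKO glands (title ESR1 KO) and another from glands labelled βERKO (title ESR2 KO), each on the strain background C57BL6/129SV and cultured for 24 days. Their titles do not mention DMBA, but the study's text describes the glands of these arrays as treated with the carcinogen. On αERKO the study's own text is divided, since its methods say that such glands could not be sampled for molecular work while other passages describe pooled αERKO RNA, so the array is called αERKO by its label. The wild type (WT) C57 glands gave 3 arrays, namely 10 days without DMBA, 24 days without DMBA and 24 days with DMBA. The Balb/c wild type glands gave 2 arrays of 24 days, with and without vitamin D5, whose titles again do not mention DMBA. Glands of 5 mice were pooled for each RNA of the WT, αERKO and βERKO groups.

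Each group was 1 array, so no difference has a replicate check and no p-value is given. In the contrasts of αERKO or βERKO with WT, genotype and strain background cannot be told apart. The software called 68.4% to 74.2% of gene probes good on an array, and the arrays' median intensity lay between 39.1 and 53.0. Of 9 luminal epithelial markers, 8 were measured and 7 or 8 were called good on each array, and the 4 basal markers measured were called good on all, as a mammary gland would have. Values are log2 of a probe's background-subtracted intensity over the median of all gene probes of that array, so 0 is the median gene probe. Pairs of probes for the same transcript, called good on both arrays, were used to estimate the SD of a single probe's log2 ratio. It was between 0.23 and 0.61 over the 7 comparisons (471 to 494 pairs), and between 0.15 and 0.28 where both probes had a mean log2 value over 4. The array labelled βERKO carried the highest Esr2 signal of all (log2 0.87, called good), and Esr2 was called good elsewhere only on the WT 24-day array without DMBA, at -0.55. The probe's place in Esr2 relative to the disrupted part was not determined, so it is called the array labelled βERKO throughout. Esr1 was not called good on the αERKO array, nor on 4 of the other 6, so it does not check that label.

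A few promoters are printed because the arrays separate their genes. Sequences are the 250 bases before the RefSeq start (assembly GRCm38.p6), 5′ to 3′ on the gene's strand, with matches of the searched motifs in capitals. Cox8b, the restricted form of the smallest complex IV subunit, lies on the minus strand at chr7:140900447-140900696, and its common partner Cox8a on the minus strand at chr19:7217617-7217866. Cox7a1, the heart and muscle form of subunit VIIa, lies on the plus strand at chr7:30183921-30184170. Sdha, the flavoprotein of complex II, lies on the minus strand at chr13:74350241-74350490, and Sdhd, a membrane anchor of the same complex, on the minus strand at chr9:50603850-50604099.
Cox8b: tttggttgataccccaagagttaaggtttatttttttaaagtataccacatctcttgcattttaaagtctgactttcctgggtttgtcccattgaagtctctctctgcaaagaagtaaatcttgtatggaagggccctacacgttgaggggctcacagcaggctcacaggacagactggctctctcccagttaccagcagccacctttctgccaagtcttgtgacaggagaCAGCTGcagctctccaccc
Cox8a: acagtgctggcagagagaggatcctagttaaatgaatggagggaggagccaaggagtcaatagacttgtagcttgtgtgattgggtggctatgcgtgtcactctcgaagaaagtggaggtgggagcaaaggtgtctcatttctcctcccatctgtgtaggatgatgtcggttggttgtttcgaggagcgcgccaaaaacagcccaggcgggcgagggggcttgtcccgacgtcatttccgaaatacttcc
Cox7a1: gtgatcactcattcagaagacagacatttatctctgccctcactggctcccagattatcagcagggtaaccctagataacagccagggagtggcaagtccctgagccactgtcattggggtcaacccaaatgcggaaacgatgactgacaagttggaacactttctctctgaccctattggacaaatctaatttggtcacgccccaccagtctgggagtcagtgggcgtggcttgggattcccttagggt
Sdha: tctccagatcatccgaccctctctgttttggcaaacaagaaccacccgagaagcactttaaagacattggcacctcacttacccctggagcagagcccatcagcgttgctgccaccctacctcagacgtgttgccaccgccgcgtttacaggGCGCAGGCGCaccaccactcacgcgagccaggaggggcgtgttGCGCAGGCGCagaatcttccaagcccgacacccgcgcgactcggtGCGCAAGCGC
Sdhd: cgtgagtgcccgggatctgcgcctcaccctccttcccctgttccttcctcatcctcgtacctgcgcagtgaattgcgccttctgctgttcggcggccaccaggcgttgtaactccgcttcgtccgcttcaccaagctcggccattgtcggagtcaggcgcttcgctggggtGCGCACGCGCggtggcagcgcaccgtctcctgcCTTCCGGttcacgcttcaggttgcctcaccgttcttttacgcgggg
The capitals in Cox8b mark the E-box CAGCTG, the letters read by myogenic and other bHLH factors, which begins 19 bases before the start. Cox8a and Cox7a1 held none of the searched motifs in this stretch. In Sdha the capitals mark 3 copies of the NRF1 motif (GCGCA, any base, then GCGC), and in Sdhd 1 copy of it with 1 of the ETS motif, printed as its reverse complement. Cox6a2 and Cox4i2 are named only.

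Promoters from 250 bases before to 50 after the start were listed for 67 of the 81 members, and 56 of the 68 broadly expressed subunits had 61 of them. All motifs were read on both strands. NRF1, a factor of nuclear genes for mitochondrial proteins, had its motif in 27.9% of the subunits' promoters and in 4.60% of all 32851 promoters of the same length. The ETS motif CCGGAAG stood in 23.0% against 8.86%, the YY1 motif AAGATGGCG in 9.84% against 1.40%, and AAGGTCA, read by the ERR receptors, in 11.5% against 4.72%. The E-box CAGCTG was in 6.56% of the subunits' promoters and in 16.3% of all, and the MEF2 motif (CTA, any 4 bases, then TAG) in 1.64% against 3.69%. By complex, the NRF1 motif was found in 2 of 3 promoters of complex II, 6 of 16 of complex V, 7 of 29 of complex I, 1 of 4 of complex III and 1 of 9 of complex IV. A match to these letters is a description of the sequence and not a bound site.

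The broadly expressed subunits were measured well and varied less than named genes as a whole. Of the 68, 67 were called good on all 7 arrays. The exception was Uqcrq, a small subunit of complex III, which was called good on 2 arrays, the array labelled βERKO (log2 -0.75) and the WT 24-day array without DMBA (-1.27). The range between a gene's highest and lowest array had a median of 0.64 on the log2 scale over the 67 subunits, beside 1.05 over all 9338 named genes called good on all 7 arrays. A range over 2-fold was seen for 11 of the 67 (16.4%), beside 52.9% of all those genes. The subunits are bright, with a median log2 value of 6.80 to 7.30 on the arrays, and brighter probes had the smaller SD given above. The genes were not matched for brightness, and its part in the smaller ranges was not tested. Cytosolic ribosomal proteins, another set that every cell uses, had a median range of 0.52 (56 genes), and mitochondrial ribosomal proteins 0.76 (67 genes). The subunits took 4.03% of the summed signal on the αERKO array and 3.16% to 3.41% on the other arrays.

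**Figure D1:**
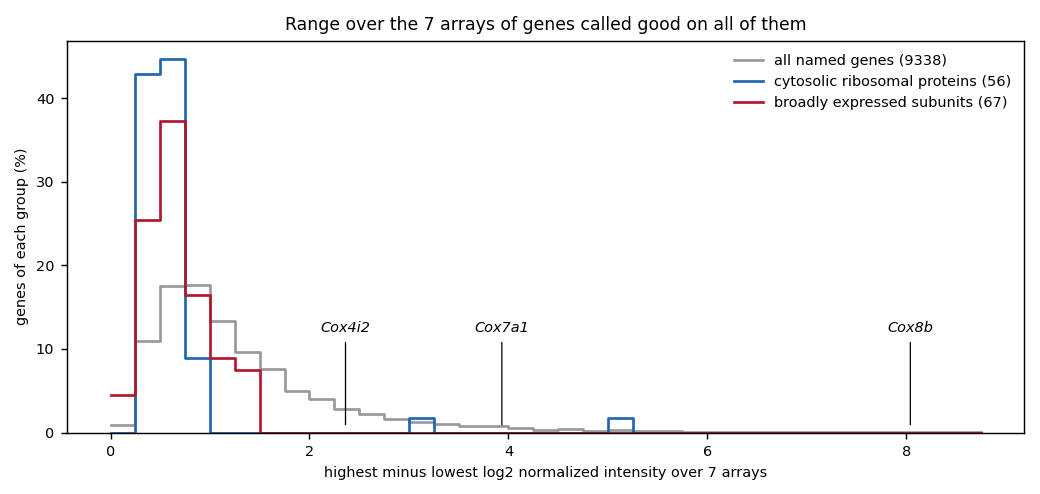
Histogram of the range of log2 values over the 7 arrays (horizontal axis, log2 units) as percent of genes (vertical axis) for the 67 broadly expressed subunits, 56 cytosolic ribosomal proteins and all 9338 named genes called good on every array. The subunits lie to the left of all genes, with a median of 0.64 against 1.05.

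The steadiest members belonged mainly to complex IV. Cox7c, a small membrane subunit of complex IV, lay between 8.28 and 8.43 on the 7 arrays, a range of 0.14. Cox5b, which lies on the matrix side of complex IV, lay between 8.04 and 8.25, and Cox7b, another small complex IV subunit, between 7.73 and 8.01. Atp5md, a small membrane subunit of complex V, had a range of 0.19 and Uqcrc2, a core protein of complex III, a range of 0.29. The group with the widest ranges was complex II, with a median of 1.20 and 3 of 4 subunits over 2-fold. The medians of the other groups were 0.61 for the core subunits of complex I, 0.70 for its accessory subunits, 0.57 for complex III, 0.42 for complex IV, 0.66 for the catalytic F1 part of complex V and 0.51 for its stalk and membrane part, where 0 of 10 subunits ranged over 2-fold. Among the 11 subunits over 2-fold were Ndufa5 and Ndufv3 of complex I, Sdha, Sdhb and Sdhc of complex II, Uqcrfs1 of complex III, Cox5a of complex IV and Atp5c1 of complex V. The widest of the 11 were Ndufb3, an accessory subunit of complex I, at 1.40 and Atp5b, the catalytic beta subunit of ATP synthase, at 1.35.

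A pair of arrays stood at the ends. Of the 67 subunits, 33 (49.3%) were highest on the αERKO array, beside 18.9% of all genes, and 22 (32.8%) on the WT 24-day array without DMBA, beside 31.7%. The lowest array was Balb/c for 35 (52.2%), beside 23.7% of all genes, the WT array with DMBA for 14 (20.9%), beside 10.6%, and Balb/c with vitamin D5 for 12 (17.9%), beside 8.77%. The last count was 30 without the Balb/c array (44.8%, beside 18.7% of all genes) and 19 without the WT array with DMBA (28.4%, beside 10.2%). Without the αERKO array, 4 of the 67 ranged over 2-fold (5.97%, beside 34.3% of all genes), and without the Balb/c array 5 did (7.46%, beside 49.6%). Leaving out any other single array left 10 or 11. Since values are relative to the array median, the share of glandular, fat or muscle cells enters every one of them, and fewer cells of a type and less RNA per cell cannot be told apart.

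**Figure D2:**
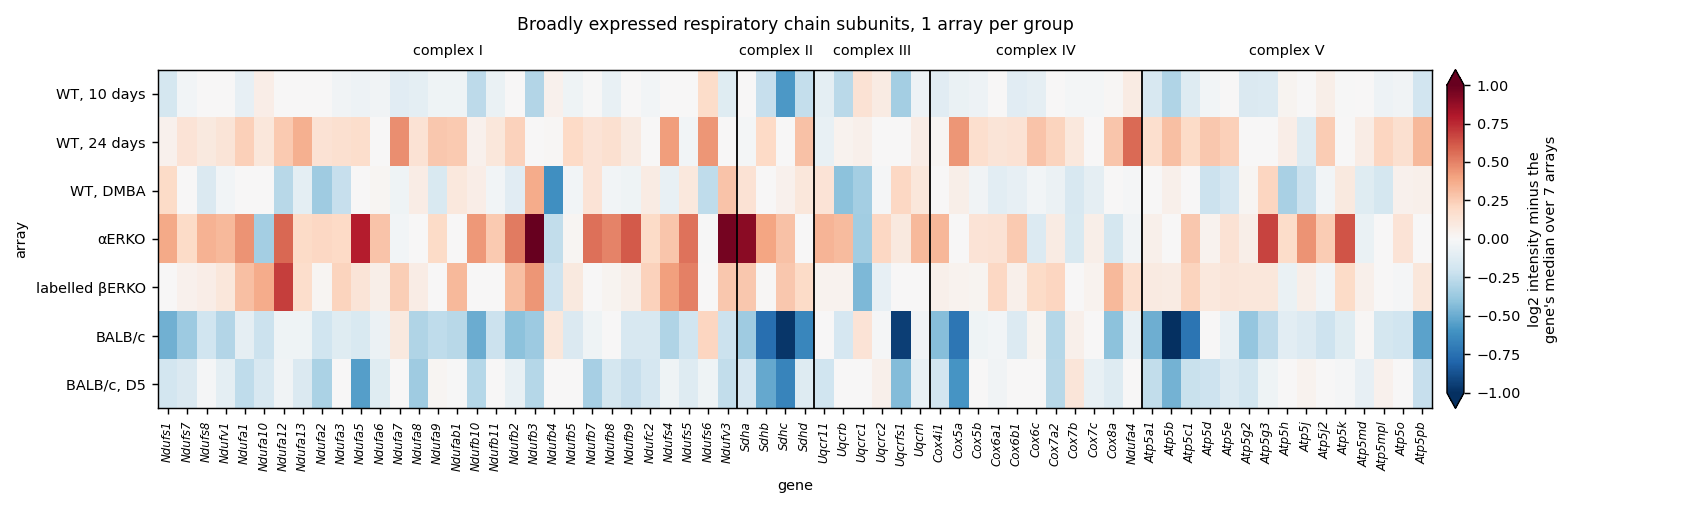
Heat map of 66 of the 67 broadly expressed subunits called good on all 7 arrays (columns, grouped by complex) on the 7 arrays (rows), coloured by log2 value minus the gene's own median over the arrays, with the scale ending at 1 either way. Of the 67, 33 were highest on the αERKO array and 35 lowest on the Balb/c array, which stand out as the warm and the cold row.

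The tissue-restricted isoforms of complex IV behaved unlike the rest. Cox8b, known from heart, skeletal muscle and brown fat, had log2 values of 8.19 on the αERKO array, 4.79 on the WT array with DMBA, 4.08 on the array labelled βERKO, 2.90 on the WT 24-day array, 0.67 on the WT 10-day array, 0.53 on the Balb/c array and 0.15 on the Balb/c array with vitamin D5, and was called good on all. The αERKO array was far above the others, the remaining 24-day arrays of the C57 and C57BL6/129SV glands followed, and the WT 10-day and both Balb/c arrays lay close together at the bottom. The range of 8.04 was the widest of any member called good on all arrays. Its common partner Cox8a lay between 7.31 (Balb/c) and 8.05 (labelled βERKO) and stood at 7.55 on the αERKO array, the second lowest of its 7 values.

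Cox7a1, the heart and muscle form of subunit VIIa, had log2 values of 4.54 on the αERKO array, 2.63 on the WT array with DMBA, 1.86 on the array labelled βERKO, 1.40 on Balb/c with vitamin D5, 1.03 on WT at 10 days, 0.89 on Balb/c and 0.60 on WT at 24 days without DMBA. The first 3 arrays were in the same order as for Cox8b and the lower 4 were not. Its common partner Cox7a2 lay between 7.22 and 7.73 on the 7 arrays. Cox6a2, the heart and skeletal muscle form of subunit VIa, was high on 1 array only, with 4.68 on αERKO beside 0.24 on the array labelled βERKO, 0.07 on WT at 24 days, -0.25 on WT at 10 days, -0.27 on WT with DMBA and -0.49 on Balb/c. On the Balb/c array with vitamin D5 it was not called good. Cox6a1, the common form of this subunit, lay between 8.86 and 9.17.

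Cox4i2, known from lung and from oxygen-sensitive smooth muscle, stood at 1.64 on the αERKO array and 0.79 on the WT array with DMBA, and between -0.72 and -0.18 on the other 5. Its common partner Cox4i1 lay between 7.56 and 8.31, highest on αERKO and lowest on Balb/c. Cox7b2, the testis form of subunit VIIb, was called good on none of the 7 arrays, while its partner Cox7b was among the steadiest members. The isoforms Cox6b2, Cox8c and Ndufa4l2 were not analysed here.

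**Figure D3:**
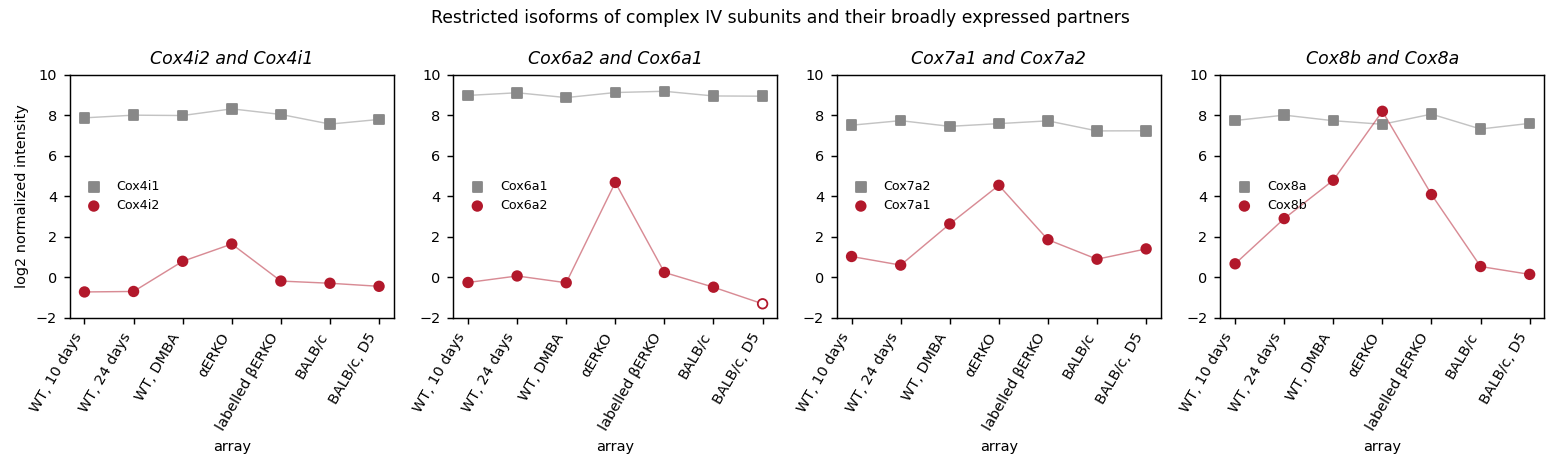
Log2 normalized intensity (vertical axis) of each restricted complex IV isoform and its common partner on the 7 arrays (horizontal axis), one panel per pair, with open markers where a probe was not called good and lines only to guide the eye. Cox6a2 stands high on the αERKO array alone at 4.68, while Cox8b spreads from 0.15 to 8.19 and Cox8a from 7.31 to 8.05.

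Markers of muscle and fat moved beside these isoforms. Of 15 skeletal muscle markers, 13 were measured, and their summed normalized intensity was 2574 on the αERKO array with all 13 called good, 56.1 on the array labelled βERKO with 9 called good, and 12.0 to 15.2 on the other 5 with 7 to 10 called good. Creatine kinase Ckm had a log2 value of 5.41 on the αERKO array and was called good elsewhere only on Balb/c, at -1.36. Myoglobin Mb stood at 6.68 on the αERKO array and between 0.94 and 1.82 on the others. Of the 4 heart markers measured, the summed intensity lay between 1.69 and 6.29, with 1 or 2 called good on each array, and the heart myosin Myh6 was called good on none.

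The 9 of 10 adipocyte markers measured summed to 3495 on αERKO, 2270 on WT with DMBA, 1816 on the array labelled βERKO, 1230 on WT at 24 days, 463 on WT at 10 days, 441 on Balb/c and 328 on Balb/c with vitamin D5. This was the order of the arrays by Cox8b. The 7 brown adipocyte markers summed to between 13.3 (labelled βERKO) and 39.9 (WT at 24 days), in another order. Ucp1, the uncoupling protein of brown fat, was highest on αERKO at 2.00, was called good on 5 arrays and lay at 0.02 or lower on the other 6. The 6 fibroblast markers summed to 401 on αERKO, 203 on WT with DMBA, 65.0 on the array labelled βERKO, 42.4 on Balb/c with vitamin D5, 23.6 on Balb/c, 17.8 on WT at 10 days and 12.4 on WT at 24 days. This was the order of the arrays by Cox7a1, except that Balb/c and WT at 10 days changed places. The part of muscle, fat or fibroblast cells in the isoforms' values was not tested.

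**Figure D4:**
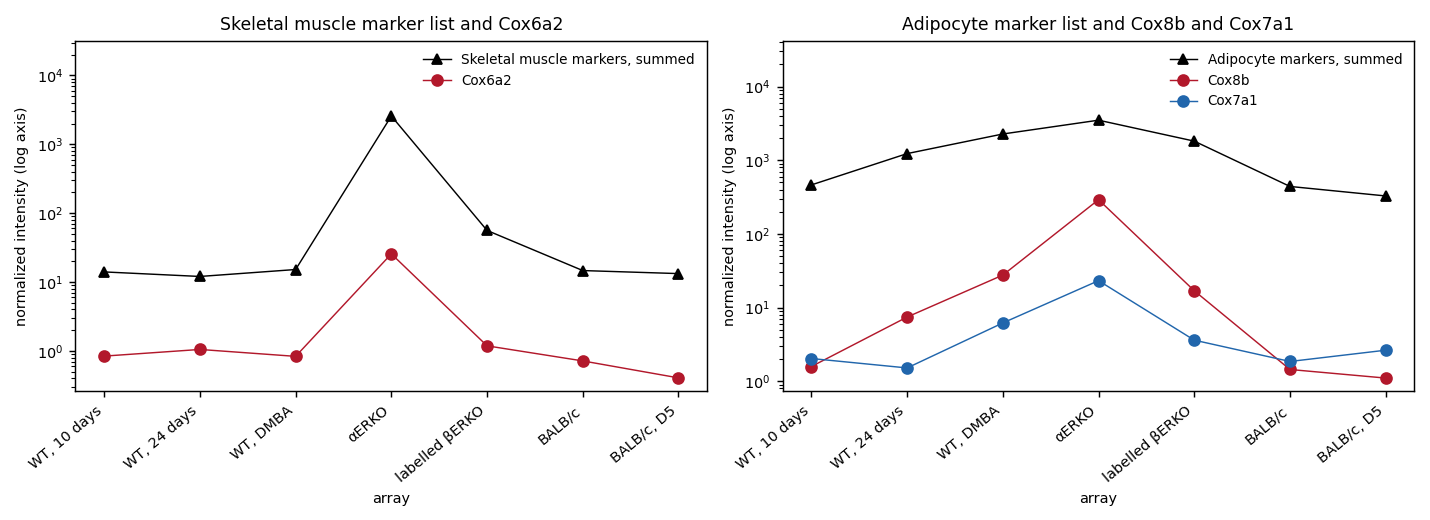
Summed normalized intensity (vertical axis, log scale) of the skeletal muscle markers with Cox6a2, and of the adipocyte markers with Cox8b and Cox7a1, on each of the 7 arrays (horizontal axis). The muscle sum and Cox6a2 stand apart on the αERKO array (2574 for the sum), and the adipocyte sum orders the arrays as Cox8b does, though not as Cox7a1 does, from 3495 on αERKO to 328 on Balb/c with vitamin D5.

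The αERKO array was first set against the WT array with DMBA, the comparison that bears on loss of the receptor. Of 79 members called good on at least 1 of these arrays, 4 were over 2-fold higher on αERKO and 0 lower, against a background of 25.4% of 12189 named genes past 2-fold either way (10.2% higher, 15.2% lower). The 4 were Cox6a2 (4.94 on the log2 scale, 30.8-fold), Cox8b (3.40, 10.5-fold), Cox7a1 (1.91, 3.75-fold) and Ndufaf5 (1.03), a complex I assembly factor with 5.45 on αERKO and 4.42 on WT with DMBA. No broadly expressed subunit was past 2-fold. Over the settings tried (scalings, filters and probe rules), the log2 ratios ran over 3.64 to 5.07 for Cox6a2, 3.14 to 3.62 for Cox8b and 1.55 to 2.12 for Cox7a1.

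The broadly expressed subunits were nevertheless placed higher than other genes on the αERKO array. Their median log2 ratio was 0.25 beside -0.17 for all genes, and 55 of 67 lay above 0 beside 40% of all genes. Across the settings tried (scalings, filters and probe rules), the median ran from 0.04 to 0.38. Its distance from the median of all genes ran from 0.22 to 0.43. The medians by group were 0.23 for the complex I core (5 of 5 above 0), 0.37 for the accessory subunits (23 of 26), 0.32 for complex II, 0.20 for complex III, 0.13 for complex IV (7 of 11), 0.25 for F1 and 0.23 for the stalk and membrane part of complex V. Those for complexes III and IV were -0.01 and -0.08 under the setting that gave the lowest values. Beside them stood 0.19 for the 13 citric acid cycle enzymes and 0.19 for 17 genes of fatty acid oxidation, -0.04 for mitochondrial ribosomal proteins and 0.19 for cytosolic ribosomal proteins. All 13 measured skeletal muscle markers were over 2-fold higher on this array, with a median log2 ratio of 7.76 (6.31 to 7.96 over the settings). Of 7 lymphocyte markers, 5 were over 2-fold higher as well (median 3.42, and 0.86 to 3.55 over the settings). Only 8 of these muscle and 4 of these lymphocyte markers were called good on both arrays, so both medians rest partly on values not called good. The 4 basal epithelial and the 4 macrophage markers were all over 2-fold lower (medians -1.85 and -1.78), as were 4 of 8 luminal markers (median -1.32), and fibroblast markers had a median of 0.70. The part of these cells in the subunits' values was not tested.

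Among the broadly expressed subunits, Ndufa12, an accessory subunit of complex I, had the highest ratio, with 7.82 on αERKO and 6.97 on WT with DMBA (0.85). Sdha stood at 7.74 and 6.99 (0.76), while its complex II partners gave smaller ratios of 0.39 for the iron-sulfur subunit Sdhb and 0.25 for the anchor Sdhc, and -0.11 for Sdhd. Ndufs8, an iron-sulfur core subunit of complex I, had a ratio of 0.50. The lowest ratios were -0.46 for Ndufaf4, an assembly factor of complex I, -0.34 for the accessory subunit Ndufa10 and -0.18 for Cox8a. Ndufa10 was at its lowest on the αERKO array, at 5.94 beside 6.06 to 6.65 on the other arrays.

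The array labelled βERKO differed less from the WT array with DMBA. Of 80 members, 1 was over 2-fold higher and 0 lower, against 13.9% of 12077 genes either way (6.62% higher, 7.29% lower). The one was Uqcrq, at least 2.17-fold higher, since it was not called good on the WT array. The broadly expressed subunits had a median log2 ratio of 0.13 beside 0.14 for all genes, with 55 of 68 above 0 beside 62.3%, and this median was below 0 under other scalings. Ndufa12 was nearly 2-fold higher (7.94 against 6.97, 0.97), followed by Ndufaf4 (0.56) and Cox6a2 (0.51). The lowest ratios were those of Cox4i2 (-0.98), Cox7a1 (-0.78) and Cox8b (-0.71), and markers of several cell types were lower on the same array. The adipocyte markers had a median of -0.67 with 4 of 9 over 2-fold lower, the fibroblast markers -1.49 with 5 of 6, the endothelial markers -1.42 with 4 of 4 and the macrophage markers -2.62 with 3 of 4, and their part in the isoforms' values was not tested.

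Both knockout arrays were then set against each other, with each keeping the values above. Of 80 members, 4 were over 2-fold higher on αERKO and 2 lower, against 32% of 12006 genes (11.8% higher, 20.2% lower). The higher ones were Cox6a2 (4.44), Cox8b (4.10), Cox7a1 (2.68) and Cox4i2 (1.83), which are all 4 restricted isoforms that were called good. The lower ones were Ndufaf4, with 4.28 on αERKO and 5.30 on the array labelled βERKO, and Uqcrq, for which only a bound of at least 1.64-fold can be given. The broadly expressed subunits had a median of 0.10 beside -0.30 for all genes, and 42 of 68 lay above 0 beside 35%. Across the settings their median ran from 0.04 to 0.49. Ndufa10 (-0.72) and Cox8a (-0.50) followed Ndufaf4 at the low end. The complex I core subunits were all above 0 (median 0.28). Complex IV had a median of -0.06 (4 of 11 above 0) and the F1 part of complex V -0.04 (2 of 5). Both contrasts with αERKO share that array.

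**Figure D5:**
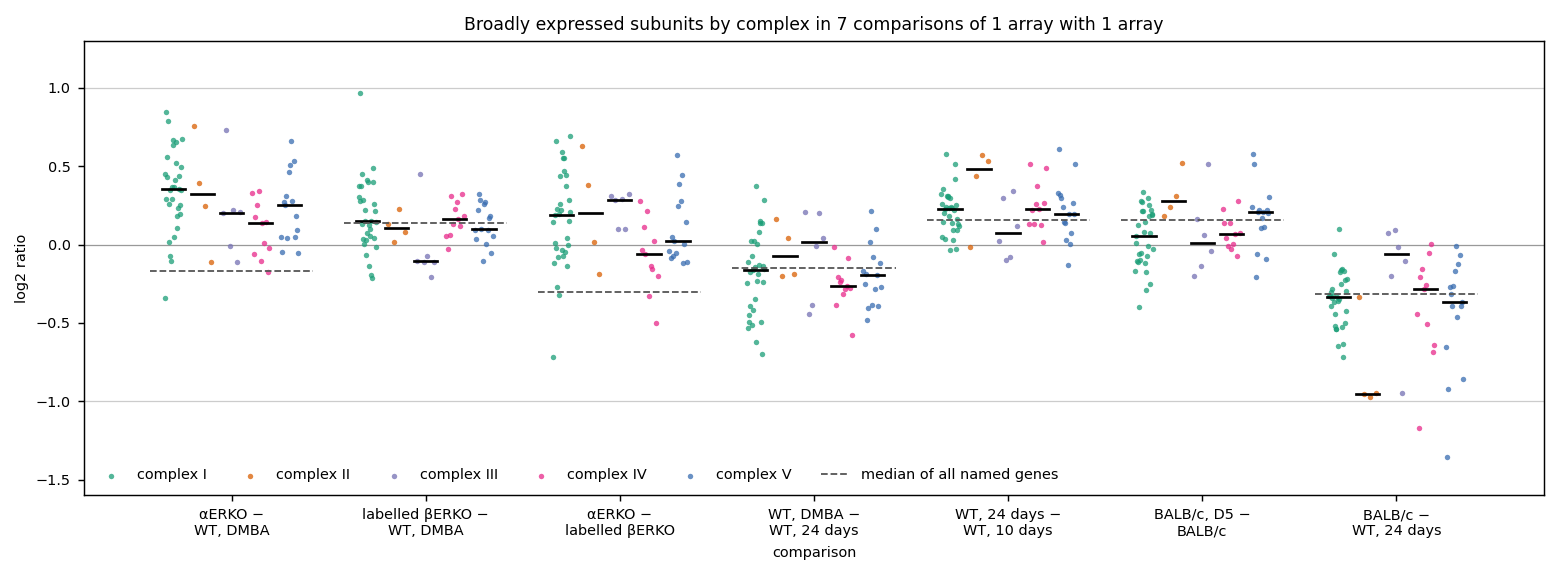
Log2 ratio (vertical axis) of each broadly expressed subunit called good on both arrays, by complex (horizontal axis), in the 7 comparisons, with black bars at the median of a complex and a dashed line at the median of all named genes. Complex II lies lowest in the Balb/c to WT panel at -0.95, and the αERKO to WT panel has the subunits' median of 0.25 above the -0.17 of all genes.

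The WT array with DMBA was set against the WT array without, both at 24 days, and carried higher values of 3 restricted isoforms while the common subunits stood where all genes did. Of 80 members, 3 were over 2-fold higher with DMBA and 1 lower, against 19.4% of 12150 genes either way (11.6% higher, 7.79% lower). Cox7a1 stood at 2.63 with DMBA and 0.60 without (2.03 on the log2 scale), Cox8b at 4.79 and 2.90 (1.89) and Cox4i2 at 0.79 and -0.70 (1.49). Over the scalings these ran from 1.52 to 2.13, 1.83 to 2.06 and 0.72 to 1.55. Cox6a2 did not go with them, at -0.27 with DMBA and 0.07 without. The member counted as over 2-fold lower was Uqcrq, which was not called good with DMBA, so only a bound of at least 1.51-fold can be given. With a floor at the lowest good value, 0 members were over 2-fold lower. Of 9 adipocyte markers, 7 were over 2-fold higher with DMBA (median 1.70), as were all 6 fibroblast markers (median 3.62) and 3 of 4 macrophage markers. The fibroblast median ran from 2.71 to 4.28 over the settings, and only 4 of the 6 fibroblast markers were called good without DMBA. The 9 muscle markers that passed had a median of -0.09. The part of these cells in the isoforms' difference was not tested.

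All 11 common complex IV subunits had a log2 ratio below 0 (median -0.26), but this direction depended on the scaling, with medians from -0.27 to 0.15. The 68 broadly expressed subunits had a median of -0.19 beside -0.15 for all genes, and 17 lay above 0 beside 39.7%. The 57 cytosolic ribosomal proteins were all below 0 as well, at a median of -0.35, and the mitochondrial ones had -0.38, while fatty acid oxidation genes had 0.28. The cytosolic median also changed sign with the settings, from -0.35 to 0.12, while the mitochondrial one ran from -0.38 to -0.09. Ndufaf4 had the lowest ratio of the members called good on both arrays, with 4.74 with DMBA and 5.63 without (-0.89). Ndufs6, an accessory subunit of complex I, followed with 7.30 with DMBA (-0.70), and Ndufb4 with 6.30 against 6.93 (-0.62). These last were at the lowest of their 7 values on the DMBA array.

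Between 10 and 24 days of culture without DMBA, the regression phase, the WT arrays differed little in the members apart from 1 restricted isoform and Uqcrq. Of 80 members, 2 were over 2-fold higher at 24 days and 0 lower, against 9.81% of 11887 genes (5.47% higher, 4.34% lower). Uqcrq was not called good at 10 days, so only a bound of at least 1.37-fold higher can be given. With a floor at the lowest good value, 1 member was over 2-fold higher. Cox8b stood at 2.90 at 24 days and 0.67 at 10 days (2.23). Cox7a1 went the other way, at 0.60 and 1.03 (-0.42). Of the 68 broadly expressed subunits, 62 lay above 0 beside 67.3% of all genes, with a median of 0.22 beside 0.16.

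Complex II had a median of 0.49 between these times, and 0.33 to 0.49 over the settings. Sdhc (5.83 at 24 days and 5.26 at 10 days, 0.57), Sdhd (6.06 and 5.53, 0.54) and Sdhb (6.89 and 6.46, 0.43) were higher, and Sdha was level at 6.82 and 6.84. Atp5b (0.61) and Ndufa7 (0.58), a complex I accessory subunit, were the highest of the broadly expressed subunits called good on both arrays. The lowest were Atp5j, a stalk subunit of complex V (-0.13), and Uqcrc1, a core protein of complex III (-0.10). Adipocyte markers had a median of 2.38 in this comparison, with 7 of 9 over 2-fold higher at 24 days, and all 4 basal epithelial markers were over 2-fold lower.

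Balb/c glands were compared with WT C57 glands without DMBA, both at 24 days, a contrast of strains in which the Balb/c title does not say whether DMBA was given. Of 80 members, 0 were over 2-fold higher in Balb/c and 3 lower, against 18.4% of 12113 genes (6.22% higher, 12.2% lower). They were Cox8b (0.53 against 2.90, -2.36), Atp5b (4.23 against 5.58, -1.35) and Cox5a, a subunit on the matrix side of complex IV (3.76 against 4.93, -1.17). The other lowest ratios were those of Sdhc (-0.98), Sdhb, Sdhd and Uqcrfs1, the Rieske iron-sulfur protein of complex III, each at -0.95, Atp5c1, the gamma subunit of ATP synthase (-0.92), and Atp5pb, a stalk subunit (-0.86). The second probe of Atp5c1 gave -0.39. The count of broadly expressed subunits above 0 was 4 of 68, beside 28.2% of all genes, but it depended on the scaling, with 19 under quantile and under 75th percentile scaling and 37 under cyclic loess. The medians were alike at -0.33 and -0.31.

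The complexes differed in how low they stood in Balb/c. Complex II had a median of -0.95, and after the median of all genes was taken off it stood between -0.68 and -0.48 over the settings. Within it Sdha had a ratio of -0.33, which ran from -0.33 to 0.02 over the scalings, so the low value came from Sdhb, Sdhc and Sdhd. The F1 part of complex V had -0.66 and the complex I core -0.50, while complex III had -0.10, complex IV -0.28, the complex I accessory subunits -0.33 and the stalk and membrane part of complex V -0.31. Under cyclic loess the median of all 68 was 0.01. Citric acid cycle enzymes had a median of -0.56, with Idh3a, a subunit of isocitrate dehydrogenase, at 2.78 in Balb/c and 4.13 in WT, and fatty acid oxidation genes -0.38, with Acadm, the medium-chain acyl-CoA dehydrogenase, at 2.79 and 4.33. Mitochondrial ribosomal proteins had -0.46 and cytosolic ones -0.05. Of 9 adipocyte markers, 7 were over 2-fold lower in Balb/c (median -2.20), and their part in these values was not tested.

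The same subunits can be read along the arrays. Sdhb had log2 values of 7.08 on αERKO, 6.89 on WT at 24 days, 6.70 on the array labelled βERKO, 6.69 on WT with DMBA, 6.46 on WT at 10 days, 6.17 on Balb/c with vitamin D5 and 5.94 on Balb/c. Both Balb/c arrays lay below the others, and the WT 10-day array was next. Sdhc was in a similar order, with 6.12 on αERKO, 6.10 on the array labelled βERKO, 5.88 on WT with DMBA, 5.83 on WT at 24 days, 5.26 on WT at 10 days, 5.17 on Balb/c with vitamin D5 and 4.86 on Balb/c. Atp5b had 5.58 on WT at 24 days, 5.36 on the array labelled βERKO, 5.33 on WT with DMBA, 5.28 on αERKO, 4.97 on WT at 10 days, 4.81 on Balb/c with vitamin D5 and 4.23 on Balb/c. For all 3 genes the C57 and C57BL6/129SV glands at 24 days were above the WT glands at 10 days, which were above both Balb/c arrays. The upper 4 arrays were close to each other, and their order differed between the 3 genes. Sdhd, also low in Balb/c against WT, did not keep the lower part of this order. It stood at 5.64 on Balb/c with vitamin D5, above 5.53 on WT at 10 days, and at 5.11 on Balb/c.

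Sdha was in another order, with 7.74 on αERKO, 7.11 on the array labelled βERKO, 6.99 on WT with DMBA, 6.84 on WT at 10 days, 6.82 on WT at 24 days, 6.67 on Balb/c with vitamin D5 and 6.49 on Balb/c. Its αERKO value stood apart from the rest. Ndufb3 had a similar shape, with 4.71 on αERKO, 4.11 on the array labelled βERKO, 4.04 on WT with DMBA and 3.31 to 3.67 on the other 4. Ndufv3, an accessory subunit of complex I, had 7.70 on αERKO and at most 7.02 elsewhere, and Ndufa5, another one, had 4.88 on αERKO and 3.54 to 4.26 elsewhere. Atp5g3, which encodes the ring subunit c of ATP synthase, was at 9.10 on αERKO and 8.16 to 8.63 elsewhere.

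The complex I core subunits kept close together. Ndufs1, the largest of them, lay between 2.90 (Balb/c) and 3.76 (αERKO), Ndufs7 between 6.11 and 6.67, Ndufs8 between 5.40 and 5.95, and Ndufv1, which binds NADH, between 5.19 and 5.80. Each of these was lowest on Balb/c and highest on αERKO. Uqcrc1 ran the opposite way to most members, with 1.98 on WT at 10 days, 1.97 on Balb/c, 1.88 on WT at 24 days and 1.84 on Balb/c with vitamin D5, and lower values on both knockout arrays (1.49 on αERKO, 1.39 on the one labelled βERKO) and on WT with DMBA. In the F1 part, Atp5a1, the alpha subunit, lay between 6.25 and 6.90, the delta subunit Atp5d between 8.06 and 8.54 and the epsilon subunit Atp5e between 7.81 and 8.21. Ndufa4, now counted with complex IV, lay between 8.13 and 8.77, and Cox6b1 between 7.21 and 7.61.

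Between the Balb/c arrays with and without vitamin D5, 0 of 79 members were past 2-fold, against 8.8% of 12177 genes (4.41% higher, 4.39% lower). The broadly expressed subunits had a median log2 ratio of 0.11 beside 0.16 for all genes, and 44 of 67 lay above 0 beside 68.9%. The highest ratios were those of Atp5b (4.81 with vitamin D5 and 4.23 without, 0.58), Sdhd (5.64 and 5.11, 0.52) and Uqcrfs1 (5.99 and 5.47, 0.51). These were also among the lowest of Balb/c against WT, and both comparisons share the Balb/c array. The lowest were Ndufa5 (-0.40), Cox8b (-0.39) and the complex I accessory subunit Ndufb7 (-0.29), and Cox6a2 was at least 1.76-fold lower since it was not called good with vitamin D5. All 4 subunits of complex II lay above 0 with a median of 0.27, while the complex I accessory subunits had -0.02.

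Of the 81 members, 4 had a second probe, namely Atp5c1, Uqcrh, a hinge protein of complex III, Ndufc2, an accessory subunit of complex I, and the assembly factor Ndufaf7. Their probes gave ratios of opposite sign in 4 of 28 cases. The widest of these was Atp5c1 with vitamin D5, at 0.51 for the probe used and -0.07 for the other. The other cases were Ndufc2 between the knockout arrays (-0.04 and 0.0035) and Uqcrh with DMBA (0.04 and -0.08) and with vitamin D5 (-0.04 and 0.03). The 8 assembly factors and related genes had a median range of 0.79 over the arrays. Ndufaf4 had the widest at 1.35, from 4.28 on αERKO to 5.63 on WT at 24 days.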

How the data were processed

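The deposited values were intensity values of 7 CodeLink arrays, 1 per group: per the labels and methods, biotin-labelled cRNA was stained with Cy5-streptavidin, scanned at 5 µm and read by the authors with CodeLink software as spot mean minus local background median, then normalized to the array median in GeneSpring. Here each deposited intensity was divided by its array's median over the 34967 gene probes and log2 transformed, and values at or under 0 were raised to the lowest positive one. The 320 negative and 300 positive controls were left out. Of 15553 probes with a RefSeq accession, 14763 were named through RefSeq tables (GRCm38.p6). Where several probes named a gene, the one brightest on average was taken, and a gene entered a comparison if called good on at least 1 of its arrays. Where a probe was good on 1 array only, the fold is a bound against the lowest good signal of the other array or the probe's own value there, whichever was higher. With 1 array per group nothing was tested. A gene past 2-fold was counted, beside all named genes. The members and lists were chosen with earlier results of these data known. Named were the isoforms and their partners, complex II, the cores of complexes I and III, F1, the 3 highest and 3 lowest members of each comparison, the 5 widest and 5 narrowest ranges, and members whose probes differed in sign. Ndufaf5, Uqcrq, Atp5pb, Ndufv3, Atp5g3 and the other subunits named for a range past 2-fold were picked after their values were seen. Quantile, 75th percentile, cyclic loess and normexp scalings, other filters, probe rules and folds were tried. Only the median scaling and the 2-fold count were checked on simulated data. Its baselines lay at or above the median gene probe, so calls near background, bounds and probe choice were not checked. Python 3.11.15, pandas 2.3.3, numpy 2.4.6 and limma in R were used. The number of arrays limits the precision.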

Additional observations from a re-analysis of the deposited data

How the results depend on the processing

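Of 63 medians of the broadly expressed subunits under other settings, 55 kept their sign. The others were, for the array labelled βERKO against WT, -0.11 with quantile normalization, -0.18 with cyclic loess and -0.019 with normexp, for DMBA 0.065 with quantile normalization and 0.15 with cyclic loess, for vitamin D5 -0.015 with the 75th percentile and -0.0016 with cyclic loess, and for Balb/c against WT 0.011 with cyclic loess. Of 70 counts of members under other settings, those made at 1.5-fold in place of 2-fold included, 54 stayed within 1.5 times of the main count. Those that did not are listed next, first the counts at 2-fold, with the percent of all genes past 2-fold in brackets. Balb/c against WT gave 1 with quantile normalization (15.9%). The array labelled βERKO against WT gave 2 with the 75th percentile (13.9%), 2 with cyclic loess (13.7%), 0 with normexp (5.81%) and 0 with genes good on both arrays (9.49%). DMBA gave 2 with normexp (8.47%), and vitamin D5 gave 1 without a filter (13.4%). For 24 against 10 days the count was 1 with normexp (2.38%), 1 with genes good on both arrays (4.72%) and 1 with a floor (6.67%). At 1.5-fold the counts were 14 for αERKO against WT (beside 45.1% of all genes), 5 for the array labelled βERKO (28.045%), 12 between the knockout arrays (53.7%), 7 for DMBA (38.7%), 1 for vitamin D5 (18.8%) and 17 for Balb/c (41.5%). Of 84 isoform levels 83 kept within the limit, and Cox8b on αERKO was 8.43 with cyclic loess. The count of subunits ranging over 2-fold was 4 to 11 when single arrays were left out, with 4 without αERKO and 5 without Balb/c, an alternative chosen after seeing the data. The causes were not tested. No group has several arrays, so none could be left out within a group. No paired analysis was possible because each group is 1 array. Signals near background limit Uqcrq, Cox7b2 and Cox6a2.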

Other observations

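Regulators of mitochondrial genes were measured outside the comparisons, 14 of 20 listed. Esrrb, an estrogen-related receptor, had a log2 value of 3.50 on the αERKO array and 0.49 to 1.08 on the other 6. Esrra, another receptor of this family, was lowest on αERKO at 2.37 and lay between 2.76 and 3.04 elsewhere. The coactivator Ppargc1a was called good on 3 arrays, with -1.22 on the array labelled βERKO, -0.86 on WT with DMBA and 0.04 on Balb/c. Its relative Ppargc1b lay between 0.83 (labelled βERKO) and 2.29 (WT with DMBA). Acadm, of fatty acid oxidation, had 5.53 on αERKO, 5.42 on WT with DMBA, 4.64 on the array labelled βERKO, 4.33 on WT at 24 days, 3.38 on WT at 10 days and on Balb/c with vitamin D5, and 2.79 on Balb/c.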
